A study of Homo sapiens with 2 samples.

Results

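Aminoacyl-tRNA synthetases and enzymes that modify RNA, most of them tRNA, were described here in BE(2)C, an established human neuroblastoma cell line with amplified MYCN. Members were found by a rule on the gene symbol alone, set with earlier results of these data known. The symbol had to be a stem of 1 to 3 letters before ARS, ARS1 or ARS2, or 1 of 12 modification stems (TRMT, TRMU, TRMO, NSUN, METTL, PUS, ELP, ADAT, TSEN, QTRT, CTU and MRM) followed by digits or nothing. The rule found 63 of the 14812 named genes, read by 67 probe sets. They comprised 14 cytosolic synthetases, 2 synthetases that serve cytosol and mitochondria from 1 gene, and 47 modifiers. None of the named genes found by the rule was a synthetase of mitochondria alone, so 0 of these entered and they were not analysed here. The gene of aspartyl-tRNA synthetase and the NSUN and ADAT families were likewise not analysed here.

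The study set 1 array of cells given MYCN siRNA, a single Qiagen product against the transcription factor MYCN, against 1 array of cells given non-targeting control siRNA from Dharmacon. The title of the control array alone carries the word reanalysis, and whether the 2 arrays were run alike is not stated. RNA from both was taken 36 hours after transfection with a lipid reagent, and 100 ng of each was labelled for Affymetrix Human Gene 2.0 ST arrays. Levels are the authors' log2 values after RMA, and a difference is the MYCN siRNA level minus the control siRNA level. With 1 array per group no difference has a replicate or a test, and the usual distance between cultures treated alike is unknown. MYCN RNA was not analysed here, and so the strength of the knockdown is unknown too.

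Each synthetase joins 1 amino acid to its tRNA, the step that fixes the genetic code. Modification enzymes methylate, thiolate, isomerise or exchange bases of tRNA. They act above all in and beside the anticodon, where they tune decoding, and in the body of the molecule, where they stabilise its fold. MYCN, like MYC, drives genes of ribosome production and protein synthesis, and it binds DNA with its partner MAX at E-boxes, of which CACGTG is the canonical form. The symbol rule also takes in METTL and MRM enzymes whose substrates are ribosomal RNA, messenger RNA or proteins, and these are kept apart below.

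Genes were taken as measured if at least 1 array gave them a level no lower than its median over all probe sets (4.55 for MYCN siRNA, 4.603 for control siRNA). This held for all 63 members and for 10592 named genes, and 62 members lay above it on both arrays. The exception, METTL24, passed through the MYCN siRNA array only. The single measure of spread in the data is that between probe sets of 1 gene, an SD of 0.31 log2 units over 374 measured protein-coding genes. It leaves out spread between cultures and arrays. Of the 63 members, 37 (58.7%) differed by no more than this SD, against 59.9% of measured genes. A further 8 (12.7%) differed by more than 2 SDs, against 12.6%, so without regard to direction the members were spread about as widely as measured genes in general. RMA makes the array distributions alike, so these values do not show the amount of RNA per cell, and fewer cells expressing a gene cannot be told apart from less of its RNA in each cell. All 8 neuroblastoma markers named here were measured. Their levels were 6.53 to 10.8 in the MYCN siRNA array and 6.47 to 10.6 in the control array. Since 10592 of the 14812 named genes were measured, passing this bar does not establish the cell type. Of 6 marker genes of blood, fibroblast and epithelial cells, 3 were measured. These were CD68 (9.001 for MYCN siRNA, 7.27 for control siRNA), LUM (5.37 and 6.54 in the same order) and KRT8 (5.10 and 5.15). CD68 on both arrays and LUM on the control array lay above TH, the lowest neuroblastoma marker (6.53 for MYCN siRNA, 6.47 for control siRNA). The part of CD68, LUM and KRT8 in the results was not tested.

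Of the 63 genes, 44 were lower in the MYCN siRNA array, 17 were higher and 2 had the same value on both. Median centring, quantile normalization and loess gave 41 to 46 that were lower. Among all measured genes 48% were lower and 50.9% higher. The median difference of the 63 genes was −0.13, against 0.01 for all measured genes. A fold of at least 1.5 separates the arrays for 8 members that were lower (12.7%, against 5.79% of measured genes) and for 1 that was higher (1.59%, against 8.81%). At least 2-fold lower were MRM1, QTRT2 and METTL1 (4.76% of members, against 1.16% of measured genes), and no member was 2-fold higher, as were 2.21% of measured genes. The synthetases and the modifiers had similar medians and unlike spreads. The synthetases lay close together, with an SD over genes of 0.19, and none passed 1.5-fold. The modifiers, with an SD over genes of 0.47, held all 9 members past 1.5-fold.

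**Figure D1:**
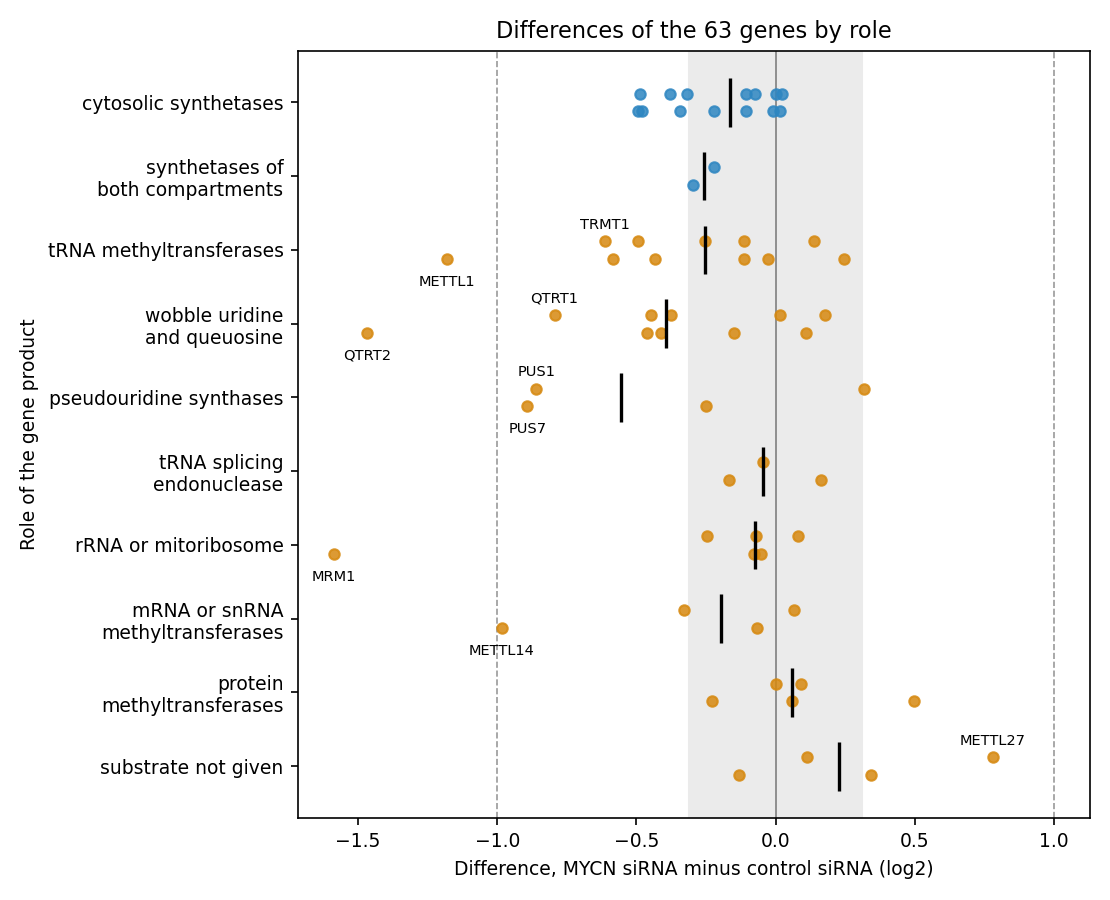
Differences (MYCN siRNA minus control siRNA, log2) of the 63 genes, a point for each gene, in rows by role, with synthetases in blue and modifiers in orange. Black bars are medians, the grey band is 1 SD between probe sets of a gene (0.31) on each side of 0, and dashed lines mark 2-fold. Names stand at the 9 genes past 1.5-fold, of which METTL27 alone lies to the right of 0.

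The cytosolic synthetases were slightly lower as a group. Of the 14, 11 were lower, 2 were higher and CARS1 had the same value on both arrays. Their median was −0.17 (1.12-fold lower), and the differences ran from −0.49 to 0.02. With the genes that serve both compartments, 13 of 16 were lower, with a median of −0.22. Measured genes with a mean level of 9 or more scatter less (SD over genes 0.36, against 0.43 over all). The 9 cytosolic synthetases at that level were read against the 1410 measured genes there. Of the 9, 7 were lower, with a median of −0.11 and none by 1.5-fold. Of the 1410, 48.5% were lower, with a median of 0.01, and 5.53% were at least 1.5-fold lower.

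VARS1, the valyl-tRNA synthetase, stood at 8.75 in the MYCN siRNA array and 9.25 in the control array (difference −0.49, 1.41-fold lower). Its 2 probe sets gave −0.49 and −0.50. LARS1, the leucyl enzyme that also senses leucine for mTORC1, stood at 9.40 for MYCN siRNA and 9.88 for control siRNA (difference −0.49). YARS1, the tyrosyl enzyme, stood at 7.52 and 7.996 in the same order (difference −0.48). These 3 and IARS1 (isoleucine, −0.38), HARS1 (histidine, −0.34) and MARS1 (methionine, −0.32) were the cytosolic synthetases beyond the probe-set SD of 0.31.

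The other cytosolic synthetases lay within it. NARS1 (asparagine) was at −0.22, AARS1 (alanine) and TARS1 (threonine) both at −0.11, and RARS1 (arginine) at −0.01. WARS1, the tryptophan enzyme, had a mean difference of −0.07, but its 2 probe sets had opposite signs, at −0.20 and 0.05. QARS1 (glutamine) was at 0.02. SARS1, the seryl enzyme, was highest, at 9.86 in the MYCN siRNA array and 9.84 in the control array. CARS1 (cysteine) read 6.76 on both arrays, one of 1859 probe sets (4.02% of all) with identical values, and METTL18 was another.

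KARS1 and GARS1 each encode a cytosolic and a mitochondrial form of the lysyl and glycyl enzymes. KARS1 stood at 10.2 in the MYCN siRNA array and 10.5 in the control array (difference −0.30), and GARS1 at 10.3 and 10.5 in the same order (−0.22). Both were lower, within the probe-set SD. A gene-level probe set does not separate the 2 forms.

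**Figure D2:**
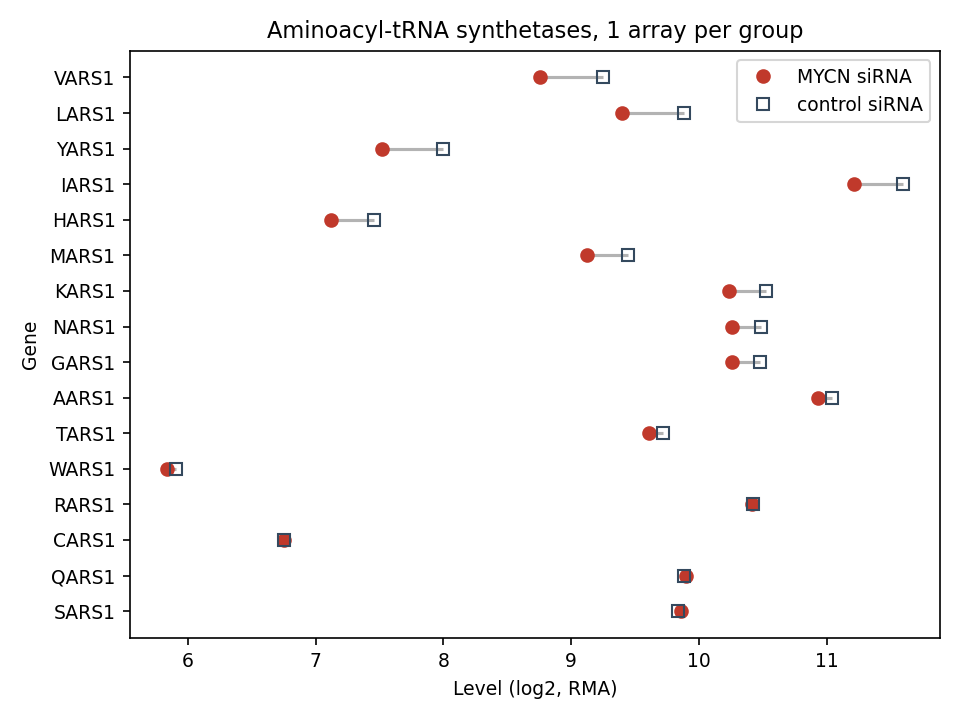
Levels (log2, RMA) of the 16 synthetases, with filled circles for the MYCN siRNA array and open squares for the control siRNA array, ordered from the lowest difference at the top. The circle lies left of the square for 13 genes, from VARS1 (8.75 against 9.25) down to RARS1 (10.4 on both), and the marks coincide for CARS1.

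Synthetases form 2 unrelated structural classes, and several of them assemble with scaffold proteins into the multi-synthetase complex. Of 9 class I enzymes 7 were lower (median −0.32), and of 7 class II enzymes 6 were lower (median −0.22). Of the 6 synthetases of the complex found by the rule 5 were lower (median −0.31), against 8 of 10 outside it (median −0.16). With no replicate, neither gap between medians could be tested. EPRS1, the glutamyl-prolyl enzyme of the complex, which the rule does not take in, was at −0.19, and the scaffold AIMP1 at −0.33.

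The 47 modifiers had a median of −0.11. Of them 31 were lower (66%, against 48% of measured genes), 15 were higher and METTL18 was the same on both arrays. Split by substrate they differed in their medians, a gap that could not be tested with 1 array per group. The 28 that act on tRNA had a median of −0.25 (1.19-fold lower). Of these 21 were lower (75%), and 6 were at least 1.5-fold lower (21.4%, against 5.79% of measured genes). The 19 that act on other molecules, or whose substrate is not given here, had a median of −0.05, with 10 lower and 8 higher. The median of cytosolic synthetases therefore lay 0.05 below that of all modifiers but 0.09 above that of the modifiers of tRNA. After quantile normalization the first of these gaps also changed sign, so the order of synthetases and modifiers is not settled by these values.

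Among tRNA methyltransferases and their partners, 9 of 11 were lower (median −0.25). METTL1, the catalytic subunit of the enzyme that makes 7-methylguanosine in the variable loop of tRNA, stood at 7.65 in the MYCN siRNA array and 8.84 in the control array (difference −1.18, 2.27-fold lower). TRMT1, which makes dimethylguanosine at the junction of the tRNA stems, stood at 8.57 for MYCN siRNA and 9.19 for control siRNA (1.53-fold lower). TRMT13, a 2′-O-methyltransferase of the acceptor stem, was just short of 1.5-fold lower at −0.58. METTL8, which makes 3-methylcytidine in mitochondrial tRNA, was at −0.49 and TRMT6, the non-catalytic subunit of the 1-methyladenosine enzyme, at −0.43. TRMT44 (−0.25), TRMT5 (−0.11), TRMT11 (−0.11) and TRMO (−0.03) lay within the probe-set SD. TRMT112, an activating partner of several methyltransferases, was at 0.14. METTL6, which makes 3-methylcytidine in serine tRNA, was highest, at 6.35 in the MYCN siRNA array and 6.11 in the control array (0.25).

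Of 10 enzymes of the wobble position, the anticodon base that reads the last base of a codon, 7 were lower (median −0.39). All 5 queuosine and thiolation enzymes were lower (median −0.46), where 48% of all measured genes were lower. This grouping was not planned beforehand and holds the 5 lowest of the 10, so its count cannot be read against that share. QTRT2, the accessory subunit of the transglycosylase that exchanges guanine for queuine, stood at 5.65 in the MYCN siRNA array and 7.12 in the control array (difference −1.47, 2.77-fold lower). QTRT1, its catalytic subunit, stood at 7.86 for MYCN siRNA and 8.65 for control siRNA (1.73-fold lower). CTU1 and CTU2, which thiolate the wobble uridine of cytosolic tRNA, were at −0.46 and −0.45, and TRMU, which does so in mitochondria, at −0.41. The 5 Elongator subunits, which build the side chain of the same uridine, had a median of 0.02. ELP2 was at −0.38 and ELP4 at −0.15, ELP6 and the catalytic subunit ELP3 were at 0.02 and 0.11, and ELP5 was highest at 9.15 for MYCN siRNA and 8.97 for control siRNA (0.18).

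Of 4 pseudouridine synthases, which isomerise uridine in RNA, 3 were lower (median −0.56). PUS1, which acts in nucleus and mitochondria, stood at 6.59 in the MYCN siRNA array and 7.45 in the control array (difference −0.86, 1.82-fold lower). PUS7, which modifies tRNA and messenger RNA, had means of 6.55 and 7.44 in the same order (−0.89, 1.86-fold lower). Both of its probe sets were lower, the brighter at −1.21 (8.11 for MYCN siRNA, 9.32 for control siRNA) and the dimmer at −0.58 (4.99 and 5.57). PUS3 was at −0.25. PUS10 was the highest, at 5.68 in the MYCN siRNA array and 5.36 in the control array (0.32). The 3 subunits of the endonuclease that cuts introns from tRNA lay near 0, from TSEN15 (7.52 for MYCN siRNA, 7.69 for control siRNA, −0.17) through TSEN54 (−0.04) to TSEN34 (7.22 and 7.06, 0.16).

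Among 6 enzymes of ribosomal RNA and the mitochondrial ribosome, MRM1 stood apart. MRM1, a 2′-O-methyltransferase of the large mitochondrial ribosomal RNA, was at 7.004 in the MYCN siRNA array and 8.59 in the control array (difference −1.59, 3.00-fold lower), rank 9 from the lowest of the 10592 measured genes. MRM2 and MRM3, which methylate other positions of the same RNA, were at −0.08 and −0.07. METTL17, a mitoribosome assembly factor, was at −0.05, METTL5, which methylates small-subunit ribosomal RNA in the cytosol, at −0.25, and METTL15, which acts on mitochondrial small-subunit RNA, highest at 6.35 for MYCN siRNA and 6.27 for control siRNA (0.08). A list of 7 members that act on mitochondrial RNA or the mitoribosome held MRM1, MRM2, MRM3, METTL8, METTL15, METTL17 and TRMU. Of these, 6 were lower, with a median of −0.08. The list is not complete, since it leaves out PUS1 (−0.86), which acts in nucleus and mitochondria.

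Of 4 methyltransferases of messenger RNA or small nuclear RNA, METTL14, the RNA-binding subunit of the N6-methyladenosine writer of messenger RNA, stood at 7.59 in the MYCN siRNA array and 8.57 in the control array (difference −0.98, 1.98-fold lower). Its catalytic partner METTL3 was at −0.33, METTL16 at −0.06 and METTL4 at 0.07 (7.99 for MYCN siRNA, 7.93 for control siRNA). Quantile normalization and loess each put METTL14 just past 2-fold, at −1.01. The 5 protein methyltransferases had a median of 0.06. METTL13, which modifies translation elongation factor eEF1A, was lowest at 8.82 for MYCN siRNA and 9.05 for control siRNA (−0.23), METTL18 was at 0, METTL22 at 0.06 and METTL9 at 0.09. METTL23 was highest at 9.22 for MYCN siRNA and 8.72 for control siRNA (0.50).

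The remaining members, whose substrates are not given here, were METTL26 (8.21 for MYCN siRNA, 8.34 for control siRNA, −0.13), METTL25 (0.11), METTL24 (0.34) and METTL27. METTL27 stood at 6.95 in the MYCN siRNA array and 6.17 in the control array (difference 0.78, 1.72-fold higher) and was the only member at least 1.5-fold higher. METTL24 was at 4.73 for MYCN siRNA and 4.38 for control siRNA, close to the array medians, so its level is not shown to be above background.

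Several of these enzymes work as pairs of subunits, which were followed together with partners outside the symbol rule. METTL1 and its partner WDR4 were lower by nearly the same amount: WDR4 stood at 5.89 in the MYCN siRNA array and 7.12 in the control array (−1.23), beside −1.18 for METTL1. TRMT61A, the catalytic partner of TRMT6, was at −0.78 (6.29 for MYCN siRNA, 7.08 for control siRNA), beside −0.43 for TRMT6. Both subunits were lower for QTRT1 with QTRT2, CTU1 with CTU2, and METTL14 with METTL3. The gap between the 2 subunits was 0.05 for METTL1 and WDR4 and 0.01 for CTU1 and CTU2. It was 0.35 for TRMT6 and TRMT61A, 0.67 for QTRT1 and QTRT2 and 0.66 for METTL14 and METTL3. Other partners had opposite signs. NAT10, the enzyme that acetylates cytidine in tRNA and ribosomal RNA, stood at 7.24 for MYCN siRNA and 8.66 for control siRNA (−1.42, 2.68-fold lower), whereas THUMPD1, its adapter for tRNA, stood at 8.40 and 7.57 in the same order (0.83, 1.78-fold higher). TRMT112 (0.14) differed in sign from its partners METTL5 (−0.25) and TRMT11 (−0.11) by amounts near or under the probe-set SD.

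**Figure D3:**
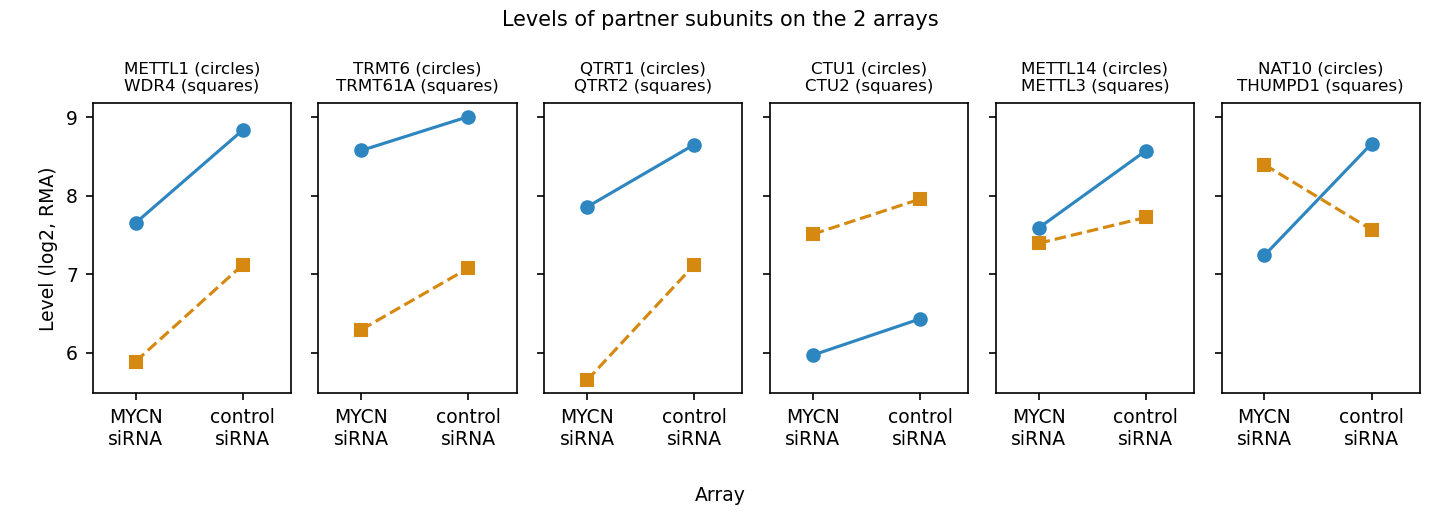
Levels (log2, RMA) of 6 pairs of partner proteins on the MYCN siRNA array (left) and the control siRNA array (right) of each panel, with circles for the first gene named and squares for the second. Both lines run lower at MYCN siRNA in 5 panels, and in the panel on the far right NAT10 (7.24 against 8.66) and THUMPD1 (8.40 against 7.57) cross. The pairs of TRMT112 with METTL5 and with TRMT11, which also had opposite signs, are not drawn. Only slopes can be compared between genes, since probe sets differ in brightness.

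A wider list of 94 genes of tRNA charging, modification and processing outside the symbol rule had 72 named genes, of which 71 were measured. Of these 48 were lower (67.6%, against 48% of measured genes) and 22 higher. Their median was −0.19, against 0.01 for all measured genes. At least 1.5-fold lower were NAT10, WDR4, TRMT61A, the pseudouridine synthase TRUB2 (9.09 for MYCN siRNA, 9.79 for control siRNA, −0.70) and PUSL1 (−0.62), 5 genes in all (7.04%, close to the 5.79% of all measured genes). At least 1.5-fold higher were 3 genes (4.23%, against 8.81% of measured genes): THUMPD1, PUS7L (6.97 for MYCN siRNA, 6.19 for control siRNA, 0.78), a relative of PUS7, and ELAC1 (0.71), a tRNA 3′-end nuclease. PUS7 and PUS7L thus had opposite signs. URM1, the sulphur carrier of the CTU1 and CTU2 reaction, which was looked up after its value was seen, was at −0.54.

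**Figure D4:**
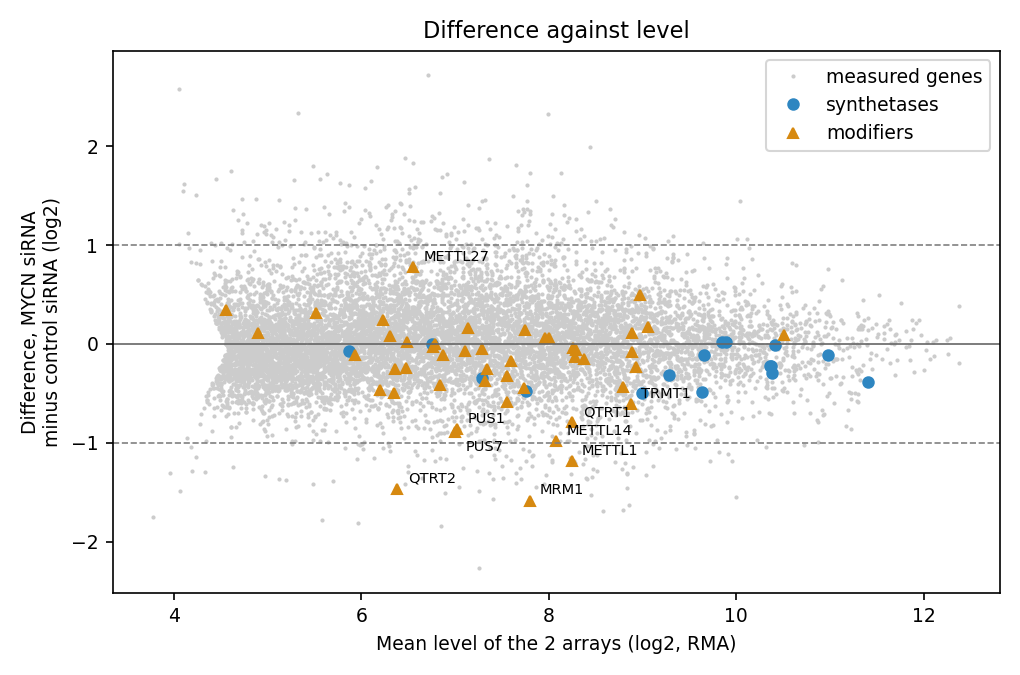
Difference (MYCN siRNA minus control siRNA, log2) against the mean level of both arrays (log2, RMA) for 10592 measured genes in grey, synthetases as blue circles and modifiers as orange triangles, with dashed lines at 2-fold. Most synthetases sit at high levels within 0.5 of 0, and MRM1, QTRT2 and METTL1 lie below the lower dashed line.

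Because MYCN binds E-boxes, the promoter windows of the members were searched for CACGTG, which reads the same on both strands. RefSeq gives a window of 250 bases before to 50 after the start of 52 of the 63 members (GRCh38.p14). It held CACGTG in 6 members (11.5%), against 9.69% of 7679 measured protein-coding genes and 7.27% of all 27305 promoters in the table. These shares are close. The 6 members were MRM1, PUS7, QTRT1, TRMT6, IARS1 and TRMO, all lower in the MYCN siRNA array, with a median of −0.61 against −0.11 for the 46 without the motif, of which 63% were lower. Over measured protein-coding genes the same medians were −0.06 for 744 with the motif and 0.04 for 6935 without it, and 56.6% of the first and 45.5% of the second were lower. The looser form CANNTG, which includes CACGTG, occurred in 59.6% of the members' windows, against 61.3% of measured protein-coding genes and 69.2% of all promoters. Members with CANNTG had a median of −0.15 and 71% were lower, against −0.11 and 61.9% without it. A match is a description of letters and not evidence of binding.

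Of the 5 members with the largest differences, the windows of MRM1, QTRT2, METTL14 and PUS7, but not METTL1, are shown for comparison of promoters with and without the motif, 5′ to 3′ on the strand of the gene, with CACGTG in capitals and the transcription start after base 250. MRM1 lies on the plus strand at chr17:36601333-36601632, QTRT2 on the plus strand at chr3:114056487-114056786, METTL14 on the plus strand at chr4:118685142-118685441 and PUS7 on the minus strand at chr7:105522222-105522521. The motif stands 20 bases downstream of the start in MRM1 and 28 in PUS7, and is not in the windows of QTRT2 and METTL14.
MRM1: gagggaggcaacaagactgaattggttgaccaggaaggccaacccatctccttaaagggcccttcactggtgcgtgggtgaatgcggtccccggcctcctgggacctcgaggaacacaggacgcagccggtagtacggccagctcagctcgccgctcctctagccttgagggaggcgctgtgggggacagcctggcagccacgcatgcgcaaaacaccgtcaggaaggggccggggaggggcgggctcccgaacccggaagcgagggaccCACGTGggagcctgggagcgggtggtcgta
PUS7: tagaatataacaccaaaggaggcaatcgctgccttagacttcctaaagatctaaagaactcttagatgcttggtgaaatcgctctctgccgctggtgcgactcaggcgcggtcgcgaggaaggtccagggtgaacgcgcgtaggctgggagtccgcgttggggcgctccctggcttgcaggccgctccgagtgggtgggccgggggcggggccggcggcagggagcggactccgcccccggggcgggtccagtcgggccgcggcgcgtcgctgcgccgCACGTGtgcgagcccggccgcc
QTRT2: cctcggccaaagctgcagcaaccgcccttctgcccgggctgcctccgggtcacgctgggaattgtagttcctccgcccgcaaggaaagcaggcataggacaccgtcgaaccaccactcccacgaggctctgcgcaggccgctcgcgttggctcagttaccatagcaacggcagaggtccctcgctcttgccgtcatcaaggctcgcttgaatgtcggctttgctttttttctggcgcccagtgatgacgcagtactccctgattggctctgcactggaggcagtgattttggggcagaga
METTL14: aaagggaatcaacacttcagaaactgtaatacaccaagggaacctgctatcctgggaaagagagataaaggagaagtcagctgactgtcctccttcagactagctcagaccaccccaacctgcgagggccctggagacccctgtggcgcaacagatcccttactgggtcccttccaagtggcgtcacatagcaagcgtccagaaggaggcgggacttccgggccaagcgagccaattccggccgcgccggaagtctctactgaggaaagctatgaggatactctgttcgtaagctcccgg

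The motif sites of QTRT1, TRMT6, IARS1 and TRMO, the other members with the motif, are given with 12 bases on each side. TRMO, at −0.03, holds 2 sites, as QTRT1 does at −0.79. QTRT1 holds 2 sites on the plus strand, at chr19:10701382-10701411 and chr19:10701428-10701457, the first 45 bases upstream of the start and the second 1 base downstream. The site of TRMT6 lies 4 bases downstream at chr20:5950512-5950541 and that of IARS1 186 bases upstream at chr9:92293866-92293895, both on the minus strand. The sites of TRMO, also on the minus strand, lie 99 bases upstream at chr9:97922263-97922292 and 83 bases upstream at chr9:97922247-97922276, and their windows overlap.
QTRT1, upstream: ggatcgcgtggtCACGTGacagcggccaac
QTRT1, downstream: tgtggtacggccCACGTGgttccgacagtc
TRMT6: agcggcgtgcaaCACGTGggggcggtgccg
IARS1: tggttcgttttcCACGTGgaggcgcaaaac
TRMO, farther: gaaggcacgggtCACGTGctgcggagacca
TRMO, nearer: tgctgcggagacCACGTGatgtgctttggc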

How the data were processed

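The deposited table holds 46255 rows of log2 values that the authors produced by RMA, per the submitters' processing notes; its settings were not stated in the labels. GEO's platform annotation gave 15835 rows 1 gene symbol and left 30420 unnamed. All named rows matched RefSeq (GRCh38.p14) by gene identifier. Probe sets of a gene were averaged, and differences and medians were computed in Python 3.11.15 with pandas 2.3.3. The scripts were tested on simulated data. With 1 array per group no test was run, and precision is limited by the number of arrays. The arrays correlated at r = 0.986 over all rows.

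The members, roles and lists were chosen with earlier results of these data known. The groupings by class, complex and partner were added after the values were seen. Those of queuosine with thiolation enzymes, of Elongator and of mitochondrial RNA were not planned beforehand either. All 63 members are given; levels are printed for those past 1.5-fold and for the lowest and highest of each role, and differences for the rest. Alternatives were median centring, quantile normalization, loess (span 0.3), the brightest probe set, no filter or the 70th percentile, an offset of 16, current symbols, and modifiers of tRNA only.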

Additional observations from a re-analysis of the deposited data

How the results depend on the processing

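Over all alternatives the median of the cytosolic synthetases ran from −0.22 to −0.12. The lower end came from leaving out rows with equal values on both arrays. No other alternative put this median below the reported −0.17. The count of members that were lower ran from 34 to 46, where 34 is out of the 44 members left with modifiers of tRNA only. Alternatives that kept all 63 members gave 41 to 46. Restricting modifiers to those acting on tRNA moved their median to −0.25 (as reported −0.11), turned the gap between cytosolic synthetases and modifiers to 0.086 (as reported −0.05) and left 0 members at least 1.5-fold higher, since METTL27 is not in that set, with 44 members in all. Quantile normalization also turned that gap, to 0.0098. The count at least 1.5-fold lower ran from 6 to 9, and that at least 2-fold lower from 2 to 4. Both lowest counts came from the set of 44 members. TRMT1, at −0.61, fell short of 1.5-fold after median centring (−0.56), and TRMT13 passed it after quantile normalization (−0.64) and loess (−0.62). With the brightest probe set PUS7 was at −1.21 and past 2-fold. An alternative chosen after seeing the data left out rows with equal values on both arrays. Mitochondrial synthetases gave no value under any alternative. No paired analysis was possible because each group holds 1 array.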

Other observations

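Genes that trim and join the ends of tRNA, which the account above leaves aside, were lower in 12 of 17 measured (median −0.14). That is 70.6%, against 48% of all measured genes. RPP40, a subunit of ribonuclease P, which removes the 5′ leader of tRNA, was lowest at 5.62 in the MYCN siRNA array and 6.18 in the control array (−0.57). The mitochondrial ribonuclease P nuclease PRORP was at −0.41, its partner HSD17B10 at −0.14 and TRMT10C, the methyltransferase of the same complex, at −0.49. ELAC2, the 3′-end nuclease of nucleus and mitochondria, was at −0.37, and ELAC1, its shorter relative, at 7.17 for MYCN siRNA and 6.45 for control siRNA (0.71). RTCB, the ligase that joins the exons of spliced tRNA, was at 0.12 and its helicase partner DDX1 at −0.18. These genes were picked from the list after their values were seen.

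The 10 measured genes of charging outside the rule, synthetases and helpers together, had a median of 0.02, with 5 lower and 5 higher. TARS3, a threonyl-tRNA synthetase related to TARS1, was at 0.20. SEPSECS, which completes selenocysteine on its tRNA, was at 7.65 for MYCN siRNA and 7.12 for control siRNA (0.53), MTFMT, which formylates mitochondrial initiator methionine, at 0.43, and DTD2, a proofreading deacylase, at −0.34.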
